A study of Homo sapiens with 16 samples.

Results

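The pro-survival BCL2 family comprises the genes BCL2, BCL2L1 (which encodes BCL-xL), BCL2L2 (BCL-w), MCL1 and BCL2A1 (BFL-1). The members were found by matching the RefSeq transcript that the scanner files give for each array probe to its gene symbol. This gave 7 probes of 5 genes, out of 50599 gene probes and 20503 gene symbols on the array, and 6 of the 7 probes were bright enough to be tested. The 5 genes were defined by family membership and not by their values, but with earlier results of these data known.

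RNA was measured in LP-1, a human multiple myeloma cell line that lacks functional TRAF3, a negative regulator of the non-canonical NF-κB pathway. LP-1-cIAP2-eGFP cells carried a lentiviral pIRES2 vector that expresses cIAP2, an inhibitor of apoptosis protein encoded by BIRC3, together with eGFP, and control LP-1-eGFP cells carried the same vector with eGFP alone. Each line was left untreated or incubated with 10 nM bortezomib, a proteasome inhibitor, for 6 h or 24 h, and each of these 8 conditions had 2 biological replicates, or 16 single-colour Agilent arrays in all. All cells were thus transduced, expressed eGFP and came from 1 myeloma line, and the sources used here do not state whether either line was a clone. A condition had 2 arrays, which limits the precision. Except where the lines were compared as 2 groups of 8 arrays, p-values rest on the spread between the arrays of a condition, pooled over the 8 conditions. After 24 h of bortezomib, replicate 1 of LP-1-cIAP2-eGFP was a dim array. Its median log2 signal before normalization was 3.18, against 5.73 to 6.64 on the other 15 arrays, and 35.5% of its spots lay well above background, against 49.0% to 71.1% elsewhere. Through the pooled spread it also bears on comparisons that do not use it. Most log2 differences of the family that use it are given with and without it. For other genes, cell type markers excepted, both are given where the call or sign changed or the value moved by over 1.5 times. The arrays lay on 2 slides, each scanned in 1 run. Of the 8 arrays of each line, slide 1 held 6 from LP-1-cIAP2-eGFP and 2 from control cells, so that line and slide were partly confounded.

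Pro-survival BCL2 proteins hold the effectors BAX and BAK1 inactive at the outer mitochondrial membrane and bind the BH3-only proteins, which relieve that block when a cell is stressed. Once BAX and BAK1 form pores, cytochrome c reaches the cytosol and caspases are activated. Myeloma cells commonly depend on MCL1, and BCL2L1 and BCL2A1 are known transcriptional targets of NF-κB.

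The identity of the cells was checked against defining markers. Of 10 plasma cell markers, 10 were well above background on every LP-1-cIAP2-eGFP array and 9 on every control array. The exception was SLAMF7, a plasma cell surface receptor, which was well above background on 5 of 8 control arrays and 5.79 higher on the log2 scale in LP-1-cIAP2-eGFP (adjusted p = 2.41e-08, limma). Because control cells lay near background for this probe, the size of that difference is not exact. Of the 10 markers, LP-1-cIAP2-eGFP had 4 called higher and 1 lower, with a median of 0.04, where 8.98% of all genes were called higher and 12.7% lower. SDC1, the plasma cell marker CD138, was 1.42 higher, MZB1 0.50 and POU2AF1 0.34, whereas CD38 had -0.55 (adjusted p = 0.00285). NSD2 and FGFR3, the genes activated by the translocation that LP-1 carries, were detected on all arrays. MS4A1 and PAX5, which define mature B cells, were well above background on none. Of the 3 T cell genes, CD3D was above background on 8 arrays of control cells and 4 of LP-1-cIAP2-eGFP, at log2 means of 6.05 and 4.91, CD3E on 7 and 3, and CD2 on 8 and 7. CD3D was called lower in LP-1-cIAP2-eGFP (-1.14, adjusted p = 0.0464, limma), while CD3E had -0.31 and CD2 had 0.32, neither called. Summed over these 3 genes, the linear signal was 2923 on the dim array, with 1 gene well above background, against 81 to 349 on the others. That array may thus set the size or sign of these differences, and their values without it are not given. For the myeloid genes CD14 and CSF1R the sum was 425 on the dim array, with 0 well above background, against 38 to 114 elsewhere. The linear signal summed over the plasma cell markers is weighted to the brightest probes, with that of XBP1 first, and serves only to compare arrays. It was 483866 and 413035 on the arrays of untreated control cells at 24 h and 172069 and 159419 after bortezomib. In LP-1-cIAP2-eGFP it was 466249 and 393275 untreated, and 185966 and 191619 after bortezomib. The part of these shifts in the results on the family was not tested. In bulk RNA, fewer cells that express a gene and less RNA per cell cannot be told apart.

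All values are log2 signals after quantile normalization, with the first value of each condition from replicate 1 and the second from replicate 2. The levels of different genes are not compared, since each comes from its own probe.

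BCL2L1 encodes BCL-xL, an inhibitor of apoptosis that binds both BAX and BAK1. Which transcripts the probes of BCL2L1 and BCL2L2 bind was not tested, among them the short BCL2L1 form that promotes apoptosis and the readthrough of BCL2L2 into PABPN1. The BCL2L1 probe was printed 10 times on each array. In control cells, the log2 signal was 10.55 and 10.5 untreated at 6 h, 10.71 and 10.73 untreated at 24 h, 10.42 and 10.46 with bortezomib at 6 h, and 9.0 and 9.23 with bortezomib at 24 h. In LP-1-cIAP2-eGFP, it was 9.49 and 9.47 untreated at 6 h, 9.66 and 9.51 untreated at 24 h, 9.60 and 9.56 with bortezomib at 6 h, and 7.86 (dim array) and 8.42 with bortezomib at 24 h. Both lines were thus lower after 24 h of bortezomib, and every LP-1-cIAP2-eGFP array lay below both control arrays of its condition. From high to low, the order was untreated 24 h, untreated 6 h and bortezomib 6 h in control cells, then untreated 24 h, bortezomib 6 h and untreated 6 h in LP-1-cIAP2-eGFP, then bortezomib 24 h in control cells and last in LP-1-cIAP2-eGFP. The only neighbours in this order whose arrays overlapped were untreated 24 h and bortezomib 6 h of LP-1-cIAP2-eGFP. The condition means spanned 2.58, whereas the median difference between the 2 arrays of a condition was 0.04. The 10 spots of the probe spread most on the dim array, with an SD of 0.381, against at most 0.0872 on any other array.

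BCL2 encodes the founding member, which protects against cytochrome c release. It had 2 probes, of which that for transcript alpha was printed 10 times and was the brighter. In control cells, transcript alpha had 11.98 and 12.20 untreated at 6 h, 12.64 and 12.08 untreated at 24 h, 12.09 and 12.32 with bortezomib at 6 h, and 11.48 and 11.43 with bortezomib at 24 h. In LP-1-cIAP2-eGFP, it had 11.95 and 12.10 untreated at 6 h, 12.23 and 12.14 untreated at 24 h, 11.85 and 12.22 with bortezomib at 6 h, and 10.98 (dim array) and 10.95 with bortezomib at 24 h. The 6 untreated or 6 h conditions overlapped with their neighbours in the order of levels, and only the conditions with 24 h of bortezomib stood apart. Of these, control cells lay 0.56 below the next condition and LP-1-cIAP2-eGFP a further 0.50 below control cells.

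With the probe listed for BCL2 transcript beta, a shorter form with its own 3′ end, this drop was not seen. Which transcripts the BCL2 probes bind was not tested. The beta probe was printed 1 time on each array. It ranged from 10.67 to 11.63 over the 16 arrays. In control cells at 24 h it had 11.63 and 10.89 untreated and 11.30 and 10.91 with bortezomib, and in LP-1-cIAP2-eGFP it had 11.24 and 10.93 untreated and 11.11 (dim array) and 10.67 with bortezomib. Treated and untreated arrays overlapped in both lines.

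**Figure D1:**
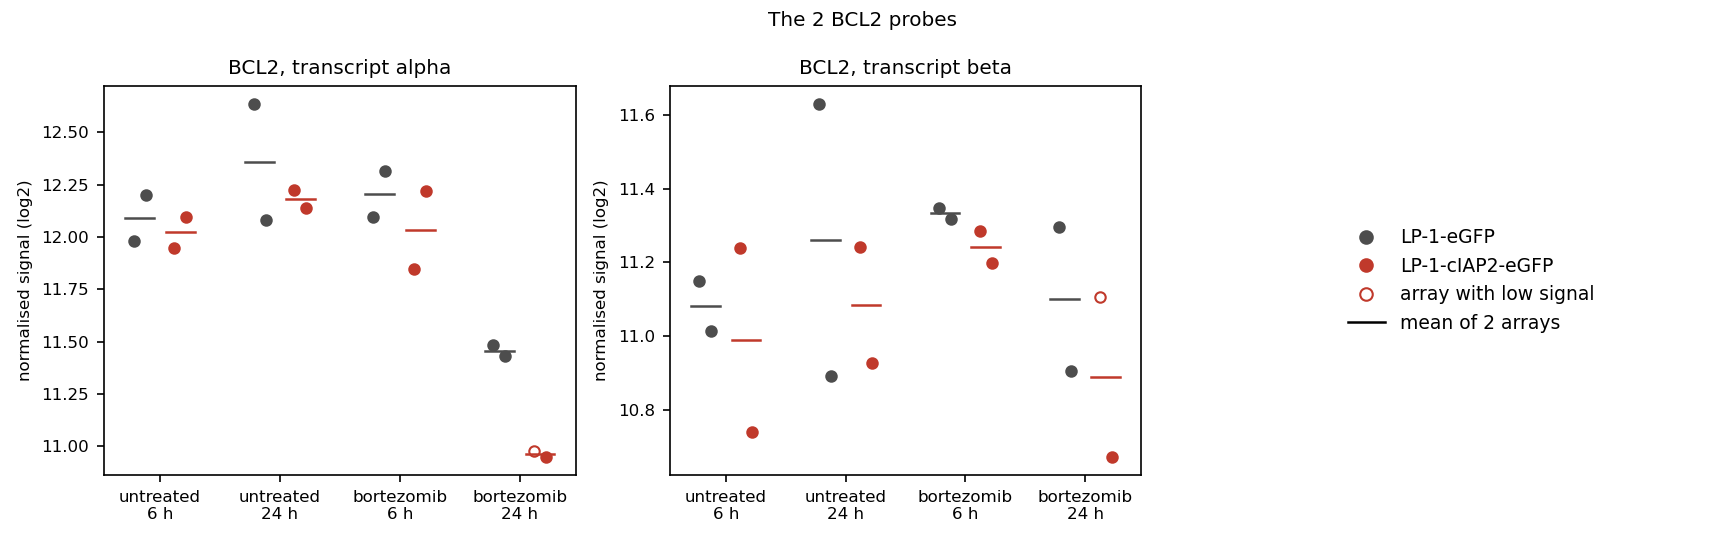
Normalised log2 signal of the probes for BCL2 transcript alpha and transcript beta on each of 16 arrays, by treatment and time, with 1 point per array, a bar for the mean of 2 arrays and an open symbol for the dim array. After 24 h of bortezomib the alpha probe lay between 10.95 and 11.48, below every other array of that probe, while the beta probe overlapped with the untreated arrays.

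MCL1 encodes a short-lived pro-survival protein that is normally cleared by the proteasome. In control cells, its log2 signal was 12.87 and 12.75 untreated at 6 h, 13.28 and 12.74 untreated at 24 h, 13.00 and 13.03 with bortezomib at 6 h, and 13.07 and 12.91 with bortezomib at 24 h. In LP-1-cIAP2-eGFP, it was 12.57 and 12.31 untreated at 6 h, 12.45 and 12.32 untreated at 24 h, 12.89 and 12.77 with bortezomib at 6 h, and 12.27 (dim array) and 12.85 with bortezomib at 24 h. In each condition the LP-1-cIAP2-eGFP arrays lay below the control arrays, but over all conditions most neighbours in the order of levels overlapped, and the condition means spanned 0.63. From high to low the order was bortezomib 6 h, untreated 24 h and bortezomib 24 h of control cells, bortezomib 6 h of LP-1-cIAP2-eGFP, untreated 6 h of control cells, and then bortezomib 24 h, untreated 6 h and untreated 24 h of LP-1-cIAP2-eGFP. The array measures RNA and does not show the amount of MCL1 protein.

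BCL2A1 encodes BFL-1, a small pro-survival protein of lymphoid and myeloid cells. In control cells, its log2 signal was 12.57 and 12.75 untreated at 6 h, 12.53 and 12.78 untreated at 24 h, 12.01 and 12.17 with bortezomib at 6 h, and 12.17 and 12.28 with bortezomib at 24 h. In LP-1-cIAP2-eGFP, it was 12.48 and 12.65 untreated at 6 h, 12.33 and 12.63 untreated at 24 h, 11.99 and 12.17 with bortezomib at 6 h, and 11.53 (dim array) and 12.12 with bortezomib at 24 h. All 8 untreated arrays lay above all 8 treated ones, and within each of these sets neighbouring conditions overlapped. For a single line and time, treated and untreated arrays did not overlap, in either direction, for 49.5% to 58.3% of probes. The share for all 16 arrays was not computed. A second probe of the same transcript was well above background on 0 of 16 arrays, with values from 2.68 to 4.22, and was not tested.

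BCL2L2 encodes BCL-w, and its probe was the closest to background of the 6 tested, well above it on 13 of 16 arrays. The other 3 were replicate 1 of untreated LP-1-cIAP2-eGFP at 6 h and replicate 1 of each line with bortezomib at 24 h. In control cells, the log2 signal was 5.70 and 5.90 untreated at 6 h, 5.81 and 5.40 untreated at 24 h, 5.24 and 4.65 with bortezomib at 6 h, and 5.24 and 5.76 with bortezomib at 24 h. In LP-1-cIAP2-eGFP, it was 5.29 and 5.90 untreated at 6 h, 6.28 and 5.39 untreated at 24 h, 7.50 and 6.54 with bortezomib at 6 h, and 5.94 (dim array) and 5.66 with bortezomib at 24 h. The highest condition was bortezomib at 6 h in LP-1-cIAP2-eGFP, which stood 1.18 above the next, and all other neighbours overlapped. The median difference between the 2 arrays of a condition was 0.56, the largest among the 5 genes.

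**Figure D2:**
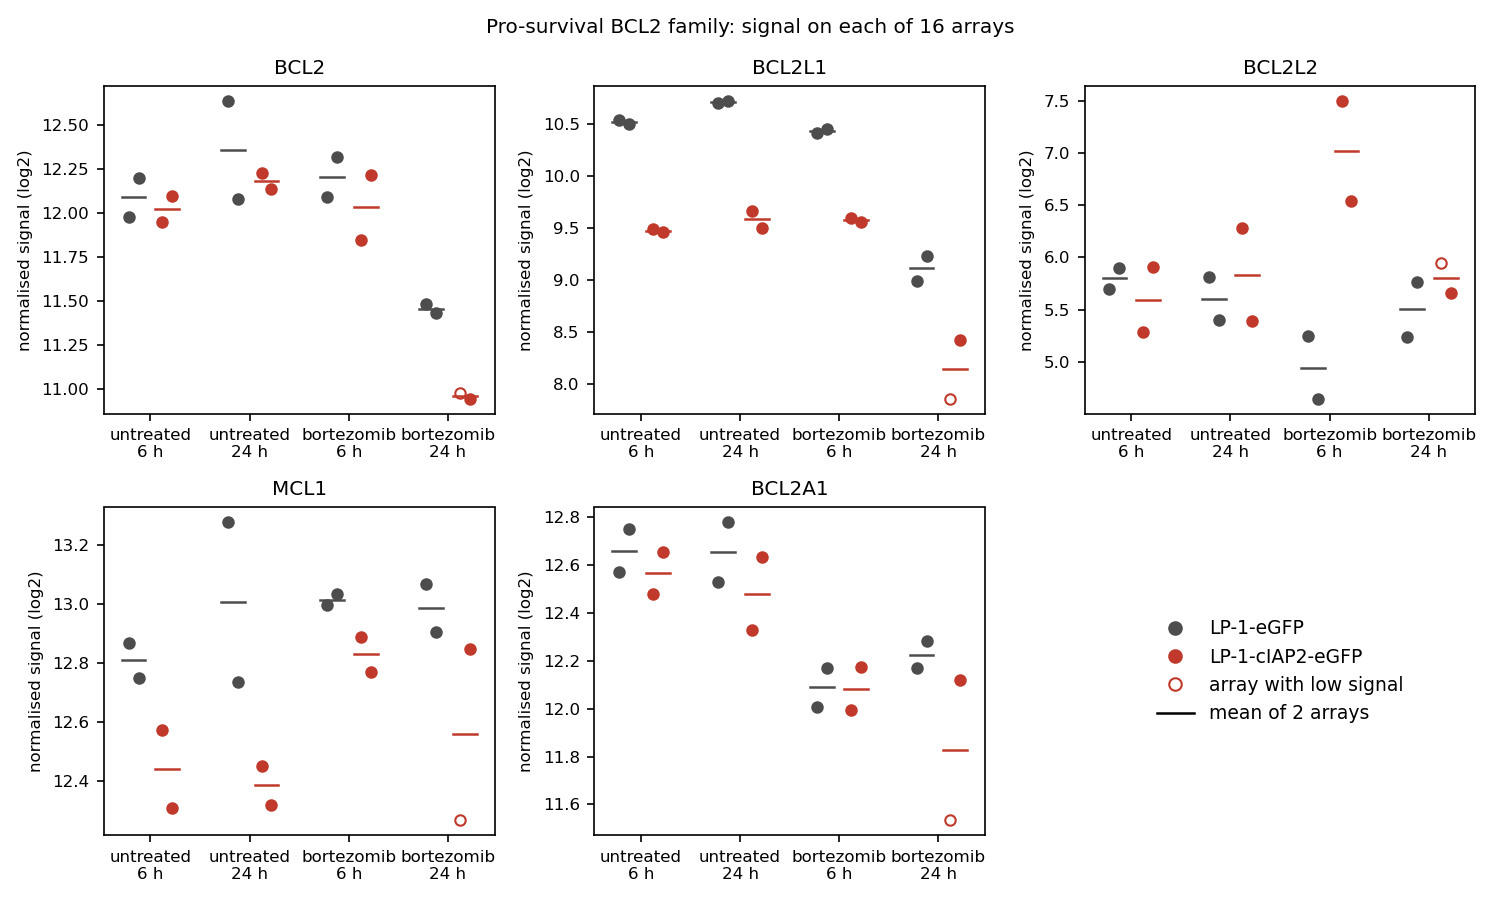
Normalised log2 signal of the 5 genes on each of 16 arrays, by treatment and time, with 1 point per array, a bar for the mean of 2 arrays and an open symbol for the dim array. BCL2L1 was separated by line in each condition and fell in both lines after 24 h of bortezomib, whereas MCL1 spanned 0.63 between its highest and lowest condition means.

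The first comparison asked how the family differed between LP-1-cIAP2-eGFP and control cells. Whether cIAP2 itself caused a difference between the lines was not tested. BCL2L1 was 2.00-fold lower in LP-1-cIAP2-eGFP than in control cells, averaged over treatment and time. MCL1 was 1.32-fold lower. BCL2, BCL2A1 and BCL2L2 did not pass the test. In limma, 2 of 5 genes were called lower at an adjusted p under 0.05, against 9.76% of all probes tested called lower and 16% called in either direction. The median of the 5 log2 differences was -0.23, beside -0.01 over all 16441 genes tested, of which 12.7% were called lower and 8.98% higher.

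For BCL2L1, the averaged log2 difference was -1.0 (SE 0.0906, 95% interval -1.21 to -0.80, adjusted p = 5.95e-05). For MCL1 it was -0.40 (SE 0.114, interval -0.66 to -0.14, adjusted p = 0.0404), and 13 of the 16 fits that left out 1 array lost this call. BCL2 had -0.23 (interval -0.46 to 0.00, adjusted p = 0.182) and BCL2A1 -0.17 (interval -0.40 to 0.07, adjusted p = 0.352). BCL2L2 had 0.60 (interval 0.14 to 1.06, adjusted p = 0.0809), the only member above 0. With the dim array left out, BCL2 had -0.23, BCL2A1 -0.09 and BCL2L2 0.56. Without the dim array, BCL2L1 had -0.93 (adjusted p = 1.12e-05) and MCL1 -0.33 (adjusted p = 0.0382), so the same 2 genes were called, against 12.1% of probes called lower.

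Stricter rules, with the cutoffs of the methods applied here to the limma fits, treated the family differently. For the 3-way analysis, the rule used here asked for an adjusted p under 0.001 and for untreated lines that differ by over 2-fold. BCL2L1 was called by it, against 1.74% of all probes called lower. For the 2-group comparison, the methods do not state whether p-values were adjusted. Taken here as a limma p under 0.005 before adjustment and a change over 2-fold, the rule called 0 members, against 3.52% of all probes. There, BCL2L1 had a log2 difference of -1.0 and a limma p of 0.00663 before adjustment (0.0826 after it), and MCL1 of 0.00698 (0.0851 after it). The 2-group fit has no terms for treatment and time, so its spread includes the differences between conditions. Over the 8 arrays of a line, the SD of BCL2L1 was 0.67 in LP-1-cIAP2-eGFP and 0.68 in control cells. At an unadjusted p under 0.05 and with no condition on the fold, 3 of the 5 genes passed, the third being BCL2L2, as did 17.1% of all probes. BCL2L1 met the whole rule when either array of control cells with bortezomib at 24 h was left out.

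Condition by condition, BCL2L1 was called lower in all 4. The difference was -1.04 untreated at 6 h (adjusted p = 0.0133), where 2.06% of probes were called lower, and -1.13 untreated at 24 h (adjusted p = 0.0095), where 1.90% were. With bortezomib it was -0.86 at 6 h (adjusted p = 0.0343, against 2.18% of probes called lower) and -0.97 at 24 h (adjusted p = 0.0152, against 3.81%). Without the dim array, the last of these was -0.69 (adjusted p = 0.0216), against 2.74% of probes. The other 3 shares were then 4.88%, 4.16% and 4.75%, in the order given, and BCL2L1 was called in each. Of the 16 fits that left out 1 array, the call was lost in 4 for each untreated time, in 12 with bortezomib at 6 h and in 2 at 24 h. The difference itself stayed between -1.07 and -1.02 and between -1.21 and -1.05 at the untreated times, between -0.88 and -0.84 with bortezomib at 6 h, and between -1.25 and -0.69 at 24 h. Of the 12 other alternatives, 3 lost it with bortezomib at 6 h, 2 with bortezomib at 24 h, 1 in untreated cells at 24 h and 0 in untreated cells at 6 h. BCL2L1 and MCL1 were the members whose arrays were lower in LP-1-cIAP2-eGFP without overlap in all 4 conditions, as were those of 7.37% of all probes.

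The single-condition differences of MCL1 ranged from -0.62 untreated at 24 h (adjusted p = 0.276) to -0.19 with bortezomib at 6 h (adjusted p = 0.883), and 0 of 4 were called. With bortezomib at 24 h MCL1 had -0.43, and -0.14 without the dim array (adjusted p = 0.858). BCL2 ranged from -0.50 with bortezomib at 24 h (adjusted p = 0.184) to -0.07 untreated at 6 h, and BCL2A1 from -0.40 with bortezomib at 24 h (adjusted p = 0.266) to -0.01 with bortezomib at 6 h. Neither gene was called in any condition. At 24 h of bortezomib without the dim array, BCL2A1 had -0.11 (adjusted p = 0.874) and BCL2 -0.51 (adjusted p = 0.337). At 24 h of bortezomib the median over all probes was itself shifted by -0.11, and relative to it, with the dim array included, BCL2 differed by -0.38 and BCL2L1 by -0.86.

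BCL2L2 differed between the lines in 1 condition. With bortezomib at 6 h it was 4.21-fold higher in LP-1-cIAP2-eGFP, with a log2 difference of 2.07 (SE 0.409, 95% interval 1.16 to 2.99, adjusted p = 0.0247), where 1.07% of probes were called higher (2.77% without the dim array, where the call held). The difference was -0.20 untreated at 6 h, 0.23 untreated at 24 h and 0.30 with bortezomib at 24 h (0.15 without the dim array), and none of these was called. The call at 6 h was lost when replicate 1 of LP-1-cIAP2-eGFP (1.60) or replicate 1 (2.37) or replicate 2 (1.78) of control cells was left out. It was also lost in 3 of 11 alternatives, one of them normexp background correction, which gave a log2 difference of 0.83 (adjusted p = 0.0531), the lowest of the range of 0.83 to 2.27. At 6 h of bortezomib, the arrays of the lines lay on different slides, so line and slide cannot be told apart there.

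On 1 slide, the arrays of both lines could be compared in 3 conditions. BCL2L1 was lower in LP-1-cIAP2-eGFP by each within-slide difference, with -1.01 on slide 1 and -1.08 on slide 2 untreated at 6 h, -1.21 on slide 2 untreated at 24 h, and -0.86 on slide 1 with bortezomib at 24 h. For MCL1 these differences were -0.18, -0.56, -0.69 and -0.51 in the same order. For BCL2 they were -0.25, 0.12, -0.22 and -0.52, and for BCL2A1 -0.27, 0.08, -0.02 and -0.34. Both thus changed sign between the slides in untreated cells at 6 h. BCL2L2 had -0.61, 0.20, -0.21 and 0.56.

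**Figure D3:**
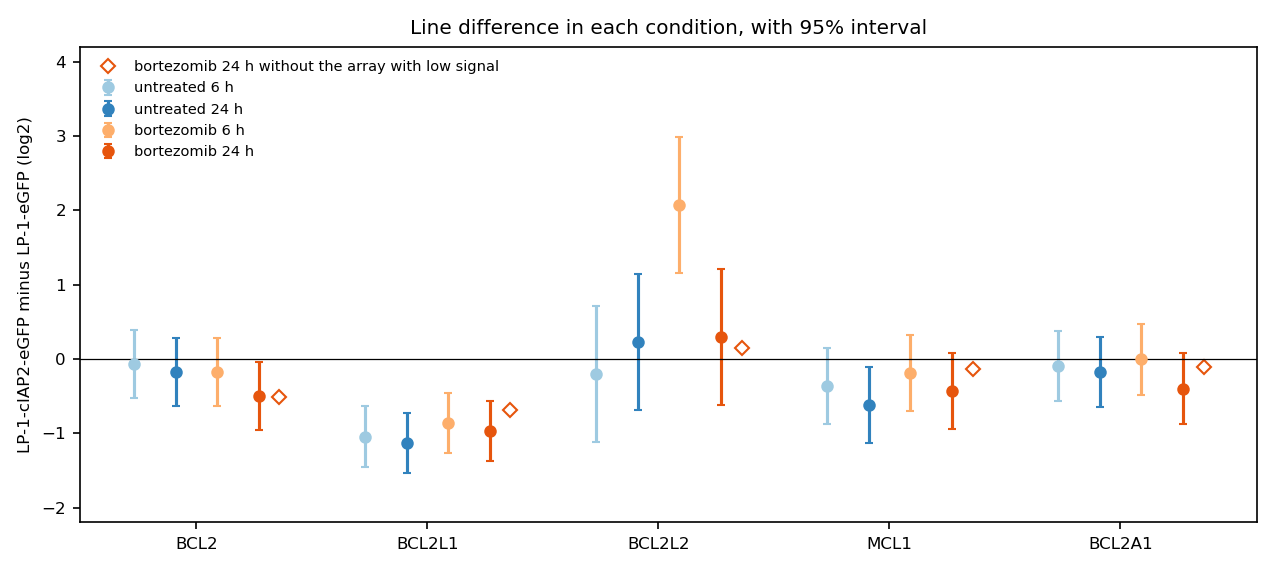
Log2 difference (LP-1-cIAP2-eGFP minus LP-1-eGFP) for each gene in each of 4 conditions, with 95% intervals from limma and a diamond for 24 h of bortezomib without the dim array. All BCL2L1 intervals lie below 0, and BCL2L2 is 2.07 higher with bortezomib at 6 h.

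The second comparison asked how bortezomib changed the family in each line. At 24 h, BCL2L1 fell 3.03-fold in control cells and 2.72-fold in LP-1-cIAP2-eGFP, and BCL2 transcript alpha fell 1.87-fold and 2.33-fold. BCL2A1 fell 1.57-fold in LP-1-cIAP2-eGFP, a call that did not hold without the dim array. MCL1 and BCL2L2 did not pass the test in either line. In control cells 2 of 5 genes were called lower, where 11% of probes were called lower and 20.7% in either direction. For LP-1-cIAP2-eGFP it was 3 of 5, where 17.3% were called lower and 28.2% in either direction. Without the dim array 2 of 5 genes passed as lower in LP-1-cIAP2-eGFP, against 14% of probes. The median log2 response of the 5 genes was -0.43 in control cells and -0.65 in LP-1-cIAP2-eGFP (-0.36 without the dim array), beside -0.03 and -0.16 over all 16449 genes tested.

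BCL2L1 had a log2 response of -1.60 in control cells (SE 0.181, 95% interval -2.01 to -1.20, adjusted p = 0.000254) and -1.44 in LP-1-cIAP2-eGFP (interval -1.85 to -1.04, adjusted p = 0.00034). The latter was -1.16, or 2.24-fold, without the dim array (adjusted p = 0.000366). Treated and untreated arrays of the same slide differed by -1.48 in control cells and by -1.52 in LP-1-cIAP2-eGFP.

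BCL2 transcript alpha had -0.90 in control cells (SE 0.205, interval -1.36 to -0.44, adjusted p = 0.0112) and -1.22 in LP-1-cIAP2-eGFP (interval -1.68 to -0.76, adjusted p = 0.0018). The latter was -1.23 without the dim array (adjusted p = 0.00616). In control cells the untreated arrays differed by 0.55, and the call was lost without the higher of them (-0.62, adjusted p = 0.0736) or without replicate 1 (-0.93, adjusted p = 0.0532) or replicate 2 (-0.87, adjusted p = 0.0572) of the treated arrays. Within 1 slide, the difference was -0.93 in control cells and -1.26 in LP-1-cIAP2-eGFP. The probe for transcript beta had -0.16 in control cells (adjusted p = 0.787) and -0.20 in LP-1-cIAP2-eGFP (adjusted p = 0.630; -0.41 without the dim array, adjusted p = 0.423). Whether the probes differed in their response was not tested.

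BCL2A1 had -0.65 in LP-1-cIAP2-eGFP (interval -1.13 to -0.18, adjusted p = 0.044), -0.36 without the dim array (adjusted p = 0.210), and -0.43 in control cells (interval -0.90 to 0.05, adjusted p = 0.212). In LP-1-cIAP2-eGFP the call was lost in 15 of the 16 fits that left out 1 array. For MCL1, the response was -0.02 in control cells (interval -0.53 to 0.49, adjusted p = 0.975) and 0.17 in LP-1-cIAP2-eGFP (interval -0.34 to 0.68, adjusted p = 0.602; 0.46 without the dim array, adjusted p = 0.171). BCL2L2 had -0.10 (interval -1.02 to 0.82) and -0.04 (interval -0.95 to 0.88; -0.18 without the dim array), neither called. Over all probes, the median response at 24 h in LP-1-cIAP2-eGFP was -0.16 with the dim array included, and relative to it BCL2L1 changed by -1.28, BCL2 by -1.06, BCL2A1 by -0.49 and MCL1 by 0.33.

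At 6 h, 0 of 5 genes were called in either line by limma, where 1.92% of probes were called in control cells and 1.11% in LP-1-cIAP2-eGFP. These shares were 6.04% and 4.06% without the dim array, again with 0 of 5 genes called. BCL2L1 had -0.08 in control cells (interval -0.49 to 0.32) and 0.10 in LP-1-cIAP2-eGFP (interval -0.30 to 0.51), and BCL2 had 0.11 and 0.01. At an unadjusted p under 0.05, 1 gene passed in control cells and 2 in LP-1-cIAP2-eGFP, where 11.7% and 10.7% of probes did. Of these, BCL2A1 had -0.57 (adjusted p = 0.287) in control cells and -0.48 (adjusted p = 0.456) in LP-1-cIAP2-eGFP, and all 4 treated arrays lay below all 4 untreated ones. Within a line at 6 h, treated and untreated arrays did not overlap, in either direction, for 56.3% of probes in control cells and 49.5% in LP-1-cIAP2-eGFP. BCL2L2 had -0.85 in control cells (interval -1.77 to 0.06, adjusted p = 0.486) and 1.42 in LP-1-cIAP2-eGFP (interval 0.51 to 2.34, adjusted p = 0.174). On 1 slide its treated arrays differed from the untreated ones by -0.76 in control cells and by 1.73 in LP-1-cIAP2-eGFP.

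Compared with 6 h of bortezomib, 24 h gave lower BCL2L1 and BCL2 in both lines. In control cells, BCL2L1 had a log2 change of -1.32 (adjusted p = 0.00164) and BCL2 of -0.75 (adjusted p = 0.0409), against 7.24% of probes called lower (13.1% without the dim array, with both genes called). The BCL2 call in control cells was lost in 10 of the 16 fits that left out 1 array (adjusted p up to 0.235) and in 4 of 12 alternatives. For LP-1-cIAP2-eGFP, BCL2L1 had -1.44 (adjusted p = 0.000663; -1.16 without the dim array, adjusted p = 0.000706) and BCL2 -1.07 (adjusted p = 0.00537; -1.08 without it, adjusted p = 0.0154), where 13.0% of probes were called lower. Between untreated cells at 24 h and 6 h no member was called in either line, and 0 probes in control cells and 0.0265% in LP-1-cIAP2-eGFP were called in limma. A contrast added after the values were seen set the response at 24 h against that at 6 h. It called BCL2L1 in both lines and BCL2 in LP-1-cIAP2-eGFP, against 3.87% of probes in control cells and 8.54% in LP-1-cIAP2-eGFP. These comparisons share arrays with the responses at each time, so they are not independent of them.

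**Figure D4:**
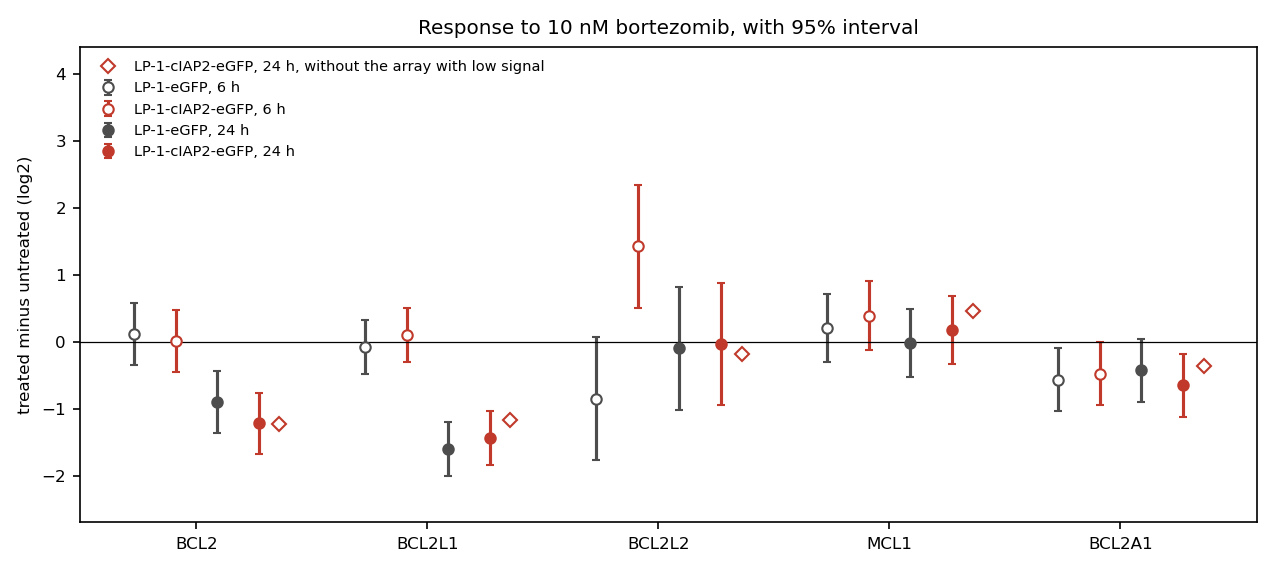
Log2 response to 10 nM bortezomib (treated minus untreated) of the 5 genes in each line at 6 h and at 24 h, with 95% intervals from limma and a diamond for LP-1-cIAP2-eGFP at 24 h without the dim array. BCL2 and BCL2L1 lie below 0 in both lines at 24 h and have intervals that include 0 at 6 h.

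Whether the lines differed in their response was tested by the interaction of line and treatment. At 24 h none of the 5 genes was called, against 0.0588% of all probes, nor without the dim array, against 0.295%. With 1 array left out, between 0 and 9319 probes were called, the most when the dim array stood alone for its condition. The difference in response was 0.16 for BCL2L1 (95% interval -0.42 to 0.73), -0.32 for BCL2 (interval -0.97 to 0.33), -0.23 for BCL2A1 (interval -0.90 to 0.44) and 0.19 for MCL1. These intervals include differences of more than 1.5-fold, so the responses were not shown to be alike. For BCL2L2 it was 0.06 (interval -1.23 to 1.36). Without the dim array BCL2L1 had 0.44 (interval 0.04 to 0.83, adjusted p = 0.525), MCL1 0.48 (interval -0.17 to 1.13) and BCL2 -0.33, while BCL2A1 turned to 0.06 (interval -0.49 to 0.62) and BCL2L2 to -0.08. At 6 h, BCL2L2 differed in its response by 2.28 (interval 0.98 to 3.57, adjusted p = 1.0), and the other 4 genes by between -0.10 and 0.19. Only 0.00294% of all probes were called at 6 h in limma, and none was of the family. The line, response and interaction comparisons share the same arrays, so the sign of one bears on the others.

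The BH3-only proteins, the natural antagonists of the family, were measured with 8 genes, of which those called after bortezomib were all higher. At 24 h, 4 of 8 were called higher in control cells and 3 of 8 in LP-1-cIAP2-eGFP, with 0 lower, and their median log2 responses were 0.49 and 0.64 (0.36 without the dim array). Over all genes tested, 13.2% were called higher and 15% lower at 24 h in control cells, and 14.3% and 21.8% in LP-1-cIAP2-eGFP, or 17.0% and 18.2% without the dim array. PMAIP1 (NOXA), which binds MCL1 and BCL2A1, had 11.94 and 10.18 untreated and 15.09 and 14.73 treated in control cells at 24 h, and 10.93 and 10.62 untreated and 15.11 and 15.05 treated in LP-1-cIAP2-eGFP. All treated arrays thus lay above all untreated ones, with log2 responses of 3.85 (adjusted p = 0.000753) and 4.31 (adjusted p = 0.000305). Within a line at 24 h, treated and untreated arrays did not overlap, in either direction, for 58.3% of probes in control cells and 55.9% in LP-1-cIAP2-eGFP. BBC3 (PUMA), which binds all pro-survival members, responded by 1.41 and 1.83, and HRK, which binds BCL2L1, by 1.19 and 1.90. BCL2L11 (BIM) had -0.58 (adjusted p = 0.493) and 0.71 (adjusted p = 0.289), with 9.79 on the dim array and 7.86 on its replicate, and without the dim array the latter response was -0.26 (adjusted p = 0.411). BID had 0.44 and -0.00 (0.17 without the dim array), neither called. At 6 h, BBC3 was the 1 gene of the 8 called in each line, by 1.34 and 1.40, where 1.90% of all genes were called higher in control cells and 1.11% in LP-1-cIAP2-eGFP. PMAIP1 had 2.25 (adjusted p = 0.0717) and 1.71 (adjusted p = 0.216).

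Between the lines, 4 of 8 BH3-only genes passed the test with lower signal in LP-1-cIAP2-eGFP and 0 with higher signal, beside 12.7% and 8.98% of all genes, and the median of the list was -0.34. BIK, which binds BCL2 and BCL2L1, had the largest difference of the 8, -2.00 (adjusted p = 1.88e-05), from 8.80 to 9.80 in control cells and from 6.33 to 8.18 in LP-1-cIAP2-eGFP, without overlap. HRK had -0.79 (adjusted p = 0.0039) and BMF, which also binds pro-survival members, -0.65 (adjusted p = 0.013). BAD, the fourth, had -0.26 (adjusted p = 0.0469). Without the dim array the same number was called lower, and BCL2L11 (0.39, adjusted p = 0.0107) and BID (0.23, adjusted p = 0.0281) were called higher, beside 15.3% of all genes called lower and 15.4% higher.

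Among the 3 effectors, none was called between the lines. BAX, which forms the pore in the outer mitochondrial membrane, had a 24 h response of -0.56 in control cells (adjusted p = 0.220) and -1.0 in LP-1-cIAP2-eGFP (adjusted p = 0.0258). The dim array read 12.13 against 12.96 on its replicate, and without it the latter was -0.58 (adjusted p = 0.134). BAK1, the second pore-forming effector, had -0.22 and -0.11 (0.15 without the dim array), neither called.

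Of 9 genes that act on the turnover of MCL1 protein, 1 was called higher and 2 lower at 24 h in control cells, while LP-1-cIAP2-eGFP had 1 higher and 4 lower, with median responses of -0.32 and -0.76 (-0.55 without the dim array). The share of all genes called lower was 15% and 21.8%, and 13.2% and 14.3% were called higher. HUWE1, a ubiquitin ligase for MCL1, rose by 0.72 in control cells (adjusted p = 0.0354). CDC20, an activator of the anaphase-promoting complex, had -2.19 and -2.15, and PCNA, the replication clamp, -0.63 and -0.83. Both genes are chiefly known for roles in cell division and DNA replication. In LP-1-cIAP2-eGFP the deubiquitinase USP9X had -2.35 (adjusted p = 0.0428) and the F-box gene FBXO4 -2.23 (adjusted p = 0.0271), but without the dim array they had -0.80 (adjusted p = 0.0994) and -1.40 (adjusted p = 0.167) and the list had 1 higher and 2 lower. FBXW7, an F-box protein that targets MCL1, was the 1 gene of the list called between the lines, at 0.59 (adjusted p = 0.000638), where 8.98% of all genes were called higher. Of the 9 genes, 4 were called higher without the dim array, against 15.4% of all genes.

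Downstream of the family, 3 of 8 apoptosome and caspase genes were called higher and 2 lower at 24 h in control cells, while LP-1-cIAP2-eGFP had 3 higher and 3 lower, with median responses of 0.08 and -0.14, beside 13.2% of all genes called higher and 15% lower in control cells, and 14.3% and 21.8% in LP-1-cIAP2-eGFP. CYCS, cytochrome c itself, fell by 1.36 in control cells and by 1.27 in LP-1-cIAP2-eGFP on the log2 scale. CASP9, the initiator caspase of the apoptosome, rose by 1.05 and 0.88. HTRA2, a mitochondrial protease that antagonises IAPs, had -0.50 in control cells (adjusted p = 0.157) and -0.97 in LP-1-cIAP2-eGFP (adjusted p = 0.0094; -0.58 without the dim array, adjusted p = 0.0146). Of the 3 voltage-dependent anion channels of the same membrane, VDAC1 fell by 1.0 and 1.10, and VDAC3 rose by 0.69 in control cells (adjusted p = 0.0164) and had 0.29 in LP-1-cIAP2-eGFP.

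Among 7 tested BCL2-related genes of other or less settled function, 3 were called higher at 24 h in each line and 0 lower, with medians of 0.73 and 1.01 (0.79 without the dim array), where 13.2% and 14.3% of all genes were called higher. These were BNIP1 (1.15 and 1.23), BCL2L13 (0.73 and 1.14) and BNIP3L (0.80 and 1.01), of which BCL2L13 and BNIP3L are receptors for the removal of mitochondria by autophagy. Between the lines, BCL2L12 was called higher by 0.38 and BNIP3L had -0.47. BCL2L13 was also called lower without the dim array (-0.21, adjusted p = 0.0174).

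Of 8 genes induced by NF-κB or acting with it in survival, LP-1-cIAP2-eGFP had 1 called higher and 3 lower, averaged over treatment and time, with a median of -0.30, where 8.98% of all genes were called higher and 12.7% lower. BIRC3, measured with a probe that reads the endogenous gene and not the vector according to the methods, had -1.16 (adjusted p = 7.70e-06), and RELB, the non-canonical NF-κB subunit, had -1.09 (adjusted p = 8.95e-06). CFLAR, an inhibitor of caspase-8, had -0.40 (adjusted p = 0.0385), and NFKB1 had 0.61 (adjusted p = 0.000427). At 24 h of bortezomib, 3 of 8 were called higher and 0 lower in control cells, and in LP-1-cIAP2-eGFP 4 higher and 1 lower. Of all genes, 13.2% were called higher and 15% lower in control cells, and 14.3% and 21.8% in LP-1-cIAP2-eGFP. The list had 4 higher and 2 lower without the dim array, since NFKB1 was then also called (-0.52, adjusted p = 0.0446). NFKBIA, the inhibitor of NF-κB, rose by 1.27 and 1.16, BIRC2 by 1.04 and 1.09, and RELB by 0.60 and 1.07, while TNFAIP3 had -0.32 (adjusted p = 0.222) and -0.81 (adjusted p = 0.00467). BIRC3 had 13.54 and 13.55 untreated and 14.04 and 13.83 treated in control cells, a response of 0.39 (adjusted p = 0.101). In LP-1-cIAP2-eGFP it had 11.92 and 12.06 untreated and 13.58 (dim array) and 13.67 treated, a response of 1.64 (adjusted p = 6.21e-05), with the treated arrays above all the untreated ones. These arrays did not overlap, in either direction, for 55.9% of probes.

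All 8 genes of the response to proteasome inhibition were called higher in both lines at both times. Of all genes, 1.90% and 1.11% were called higher at 6 h in control cells and LP-1-cIAP2-eGFP, and 13.2% and 14.3% at 24 h. The 8 genes had median log2 responses of 3.11 in control cells and 2.79 in LP-1-cIAP2-eGFP at 6 h, and of 3.00 and 4.01 (4.65 without the dim array) at 24 h. At 24 h, the stress transcription factor ATF3 rose by 4.38 and 6.96, the co-chaperone DNAJB1 by 4.5 and 4.79, and DDIT3, a factor of the unfolded protein response, by 3.47 and 4.70. The heat shock gene HSPA1B rose by 5.61 and 4.87, and its near-identical copy HSPA1A, well above background on 6 of 16 arrays, cannot be reliably separated from it. HSPA1A was well above background on no untreated array and passed the filter only through cells with bortezomib at 6 h. Its place among the genes called higher is therefore not independent of that filter. BCL2 and BCL2L1 were not called at 6 h, and whether they differed from these 8 genes in timing was not tested.

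**Figure D5:**
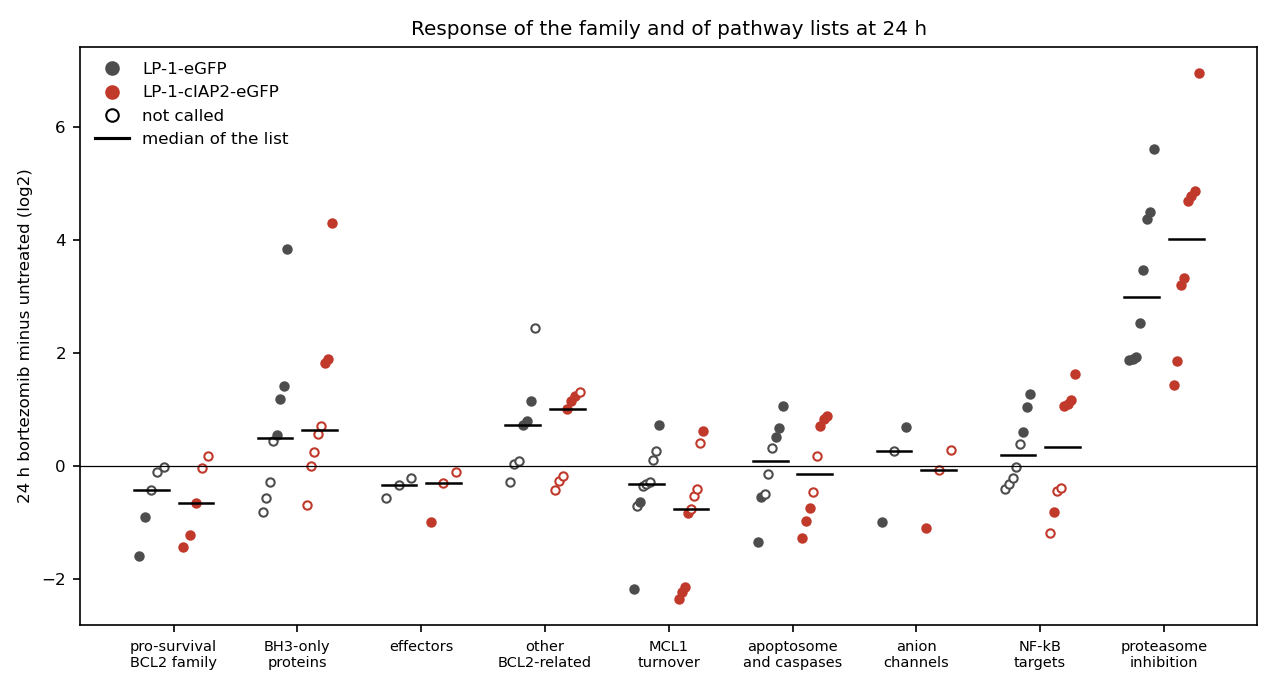
Log2 response to bortezomib at 24 h (treated minus untreated) of each gene of the family and of 8 pathway lists in both lines, with filled symbols for genes called at an adjusted p under 0.05, open symbols for the others and a bar for the median of each list. The family has its medians at -0.43 and -0.65, and the genes of proteasome inhibition at 3.00 and 4.01.

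Promoter sequences are shown for the motifs to which these lists refer, and the motifs were chosen with the results known. RefSeq windows (build GRCh38.p14) from 250 bases before to 50 bases after a start site were searched on both strands for the κB motif and for TGATGNAA, the core of the element that ATF4 binds with C/EBP factors. The motifs do not overlap in the sequences shown. Of 35116 windows, 5.91% held the κB motif and 3.62% held TGATGNAA. The table held 4 windows for BCL2, BCL2L1 and BCL2A1, and the κB letters were found in none of them, while the BCL2A1 window held TGATGNAA. BIRC3 and NFKBIA, from the list of NF-κB targets, are shown beside it because their windows held the κB letters. Each line gives 30 bases 5′ to 3′ on the strand named, with the motif in capitals.
BIRC3, chr11:102317339-102317368, minus strand: ttaggacttaGGGGAACTCCagcggtaata
BIRC3, chr11:102317275-102317304, minus strand: aaacccactcGGGGATTTCCatgacccaaa
NFKBIA, chr14:35404811-35404840, plus strand: gtcaggctcgGGGAATTTCCaagccagtca
BCL2A1, chr15:79971241-79971270, minus strand: atattataaagTGATGCAAacagaaattcc
A match describes letters and is not a bound site, and the absence of a match says only that these letters were not in this window.

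Across the 8 condition means, the genes most like each member were listed as a description. The points share lines, treatment and arrays, and 13931 genes were ranked by Pearson's r. BCL2L1 was most like PABPC4 (r = 0.996), HLA-DMB and PINX1 (both 0.99), and BCL2 most like PRPS2, DEPP1 and PPA2 (all 0.99). BCL2A1 was most like MBLAC1, MORC2-AS1 and PSKH1 (all 0.99), and MCL1 most like ATG13 (0.95), SNRPN (0.95) and TNFRSF10D (0.94). BCL2L2 was most like PHGR1 (0.96), FLJ13224 (0.91) and B3GAT1-DT (0.89). Within the family, BCL2 and BCL2L1 had r = 0.89 over the 8 conditions, BCL2 and BCL2A1 0.69, and BCL2L1 and BCL2A1 0.66. BCL2L1 and MCL1 had 0.50, and BCL2L2 had between -0.22 and -0.04 with the other 4 genes.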

How the data were processed

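RNA was hybridised to 16 single-colour Agilent SurePrint G3 Human 8x60K v2 arrays. Per the file headers, the deposited intensity values came from Agilent Feature Extraction 10.7.3.1, which subtracts the background and detrends each array. They were not normalized between arrays. The authors also deposited log2 values, quantile normalized in GeneSpring per the methods, and the values show that each probe was then centred on its median. That table served as an alternative.

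Intensities were taken to log2, spots flagged as outliers were dropped, the spots of a probe were averaged, and arrays were quantile normalized (limma 3.58.1, R 4.3.3). A probe was tested if at least 1 condition had both of its arrays well above background (33993 probes). limma fitted 1 mean per condition over all 16 arrays (prior degrees of freedom 1.61), so conditions share 1 estimate of the spread. p-values were Benjamini-Hochberg adjusted over all probes tested and called under 0.05. Missing every spot of a condition removed a probe from a contrast. The 2-group comparison set 8 arrays of each line against each other, with no terms for treatment or time. RefSeq accessions named 28174 probes (55.68%), and a gene stands for its brightest probe. The script was tested on simulated data. Figures were drawn with matplotlib 3.10.9.

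Genes named are the 5 members and, from each pathway list, up to 5 genes with the largest change among those called between the lines or at 24 h of bortezomib, plus BAX, BAK1, BCL2L11, PMAIP1, BBC3, BID and BIRC3. The likeness genes are the 3 with the highest r among genes well above background on at least 12 arrays. BAD, CFLAR, FBXW7, NFKB1 and some cell type markers were named after their values were seen, to complete counts. Some genes picked this way are not reported here. The members and lists were chosen with earlier results of these data known. Alternatives were 75th percentile scaling, normexp with an offset of 50, the authors' values, all spots, no filter or a filter on all arrays, slide or replicate block, array weights, an additive model, the compared conditions alone, probes averaged, and each array left out in turn. An array left alone in its condition was taken to vary as other arrays do.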

Additional observations from a re-analysis of the deposited data

Results flagged for a closer look

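Differences between 6 h and 24 h in the response to bortezomib, a contrast added after the values were seen, passed an adjusted p under 0.05 in 3 of 4 tests on BCL2 and BCL2L1 and in 0 of the tests on the other 3 genes. The background was 3.87% of all probes in control cells and 8.54% in LP-1-cIAP2-eGFP. For BCL2L1, the response at 24 h minus that at 6 h was -1.52 in control cells (adjusted p = 0.0136, limma) and -1.55 in LP-1-cIAP2-eGFP (adjusted p = 0.00732; -1.26 without the dim array, adjusted p = 0.0034). For BCL2 transcript alpha it was -1.23 in LP-1-cIAP2-eGFP (adjusted p = 0.0302; -1.24 without the dim array, adjusted p = 0.0378). In control cells it was -1.02 (adjusted p = 0.0924), and whether the lines differ in this change over time was not tested. Differences between the lines in response were also tested for the 5 members and 35 pathway genes named by rule. With the dim array included, 0 passed at 6 h or at 24 h. Without the dim array, a call changed at 24 h within the list of the response to proteasome inhibition, toward a higher response in LP-1-cIAP2-eGFP. In that fit, 1 array stood alone for its condition. The median difference in response of that list at 24 h was 0.49 with the dim array and 0.52 without it.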

How the results depend on the processing

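BCL2L1 was called lower in LP-1-cIAP2-eGFP, averaged over treatment and time, under each of the 12 alternatives that gave a value (-1.02 to -0.91) and with each of the 16 arrays left out. The MCL1 call was lost with 75th percentile scaling (-0.39, adjusted p = 0.0583, limma), normexp (-0.57), no filter (-0.40), the slide as a block (-0.46) or with array weights (-0.40), and 1 member was then called. The cause was not tested. The number of probes called fell to 3072 with the slide as a block. With each array left out, 4034 to 12295 probes and 1 to 3 members were called, with MCL1 at -0.47 to -0.33, BCL2L2 at 0.48 to 0.72 and BCL2A1 at -0.24 to -0.0946. BCL2L2 was called when replicate 2 of bortezomib at 6 h in LP-1-cIAP2-eGFP was left out (0.72, adjusted p = 0.0404) and BCL2A1 when its replicate 2 at 24 h was (adjusted p = 0.0484). In the 2-group comparison, probes called were 616 with normexp, 331 with the filter on all arrays and 721 with probes averaged, and BCL2L1 ranged from -1.17 to -0.81 with 1 array left out. By the 3-way rule, 396 probes were called with the filter on all arrays.

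For the lines within a condition, 0 members were called from the compared arrays alone untreated at 24 h and with bortezomib at 6 h or 24 h, where 4 arrays give few degrees of freedom. With bortezomib at 6 h, 1 member was called with normexp, no filter or the filter on all arrays, and 0 with the slide as a block, where BCL2A1 had 0.10. With bortezomib at 24 h, 0 were called with array weights and BCL2L2 had -0.13 with normexp, and untreated at 6 h it had 0.0456. With 1 array left out, members called were 0 to 1 untreated at 6 h, 0 to 1 untreated at 24 h, 0 to 2 with bortezomib at 6 h and 0 to 3 at 24 h. Probes called were then 353 to 2556, 350 to 2183, 356 to 2556 and 660 to 14337 in the same order. The BCL2L1 call untreated was lost without any of the 4 arrays compared, at either time. With bortezomib it was lost in 12 fits at 6 h, and at 24 h without replicate 1 (adjusted p = 0.0501) or replicate 2 (adjusted p = 0.0910) of control cells. BCL2 ranged from -0.18 to 0.0418 untreated at 6 h, -0.45 to 0.10 untreated at 24 h and -0.36 to 0.0126 with bortezomib at 6 h. BCL2L2 ranged from -0.51 to 0.11 and from -0.21 to 0.68 untreated at 6 h and 24 h, and BCL2A1 from -0.10 to 0.0852 with bortezomib at 6 h.

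For bortezomib at 24 h, the compared arrays alone gave 0 probes and 0 members in either line, with BCL2 at -0.90 and BCL2L1 at -1.60 in control cells, and BCL2 at -1.22, BCL2L1 at -1.44 and BCL2A1 at -0.65 in LP-1-cIAP2-eGFP. These values are the same as before, and the smallest adjusted p of the 5 was 0.0559. The BCL2A1 call in LP-1-cIAP2-eGFP was lost with 75th percentile scaling (-0.88), no filter (-0.65), slide as a block (-0.60) and array weights (-0.65). Array weights called 2809 probes and 1 member there, with BCL2 at -1.22 (adjusted p = 0.130). Probes averaged left 1 member in control cells, with BCL2 at -0.53. MCL1 turned to -0.067 with 75th percentile scaling and to -0.58 with normexp in LP-1-cIAP2-eGFP. BCL2L2 turned to 0.0445 in control cells and 0.57 in LP-1-cIAP2-eGFP with 75th percentile scaling, which moved the median over all probes in LP-1-cIAP2-eGFP from -0.16 to 0.21. With 1 array left out, control cells had 4400 to 10617 probes and 1 to 2 members called, with BCL2 at -1.18 to -0.62, BCL2L2 at -0.36 to 0.16 and MCL1 at -0.29 to 0.25. LP-1-cIAP2-eGFP had 6046 to 17790 probes, with BCL2L2 at -0.48 to 0.41, MCL1 at -0.12 to 0.46 and BCL2A1 at -0.95 to -0.36.

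At 6 h, BCL2 in LP-1-cIAP2-eGFP had -0.0024 with the authors' values, -0.0042 with all spots kept, -0.0157 with the slide as a block and -0.17 to 0.20 with 1 array left out, and array weights called 1 member in control cells. With 1 array left out, 70 to 2053 probes were called in control cells and 92 to 1378 in LP-1-cIAP2-eGFP. For the interaction at 24 h, normexp gave -0.28 for BCL2L2 and -0.56 for MCL1, and leaving out 1 array gave BCL2L1 -0.12 to 0.44, BCL2L2 -0.38 to 0.51, MCL1 -0.10 to 0.48 and BCL2A1 -0.52 to 0.0644. At 6 h the latter gave BCL2 -0.29 to 0.0806 and BCL2A1 -0.0015 to 0.18. Between 24 h and 6 h of bortezomib, control cells had 1 member called with no filter, the slide as a block or probes averaged, 0 from the compared arrays alone and 1 to 2 with 1 array left out, and LP-1-cIAP2-eGFP had 1 with array weights and 0 from the compared arrays alone.

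The labels do not say whether a replicate number marks a shared culture or day, and the main fit did not pair the arrays. The correlation of deviations was over 0.1 in 7 of 28 pairs of conditions (-0.113 to 0.234), which cannot exclude pairing. With the replicate block, 6123 probes were called between the lines, 7899 for bortezomib at 24 h in control cells and 10540 in LP-1-cIAP2-eGFP, with 2, 2 and 3 members, and no call of a member changed. The additive model was applied to the line difference only. Signal over background limits BCL2L2 most, and 2 arrays per condition limit all tests.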
